A study of Mus musculus with 2 samples.

Results

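The genes described here are Cybb, Cyba, Ncf1, Ncf4 and Rac2, which encode subunits of the phagocyte NADPH oxidase. They are 5 of the 17751 genes in the transcript count tables, and all 5 were found there. The list was chosen by an earlier result in the same cells: Cybb was higher in Batf3-/- than in WT cells of cluster C6, and the question was whether the other subunits follow. The C6 values of Cybb are therefore a description of what selected the list, and the 4 other genes carry the answer.

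The phagocyte NADPH oxidase transfers electrons from cytosolic NADPH across a membrane to oxygen and so makes superoxide. Its catalytic core is a membrane heterodimer of gp91phox (NOX2), encoded by Cybb, and the small subunit p22phox, encoded by Cyba. Each stabilises the other in the membrane. The core is silent until cytosolic subunits join it: among them the organiser p47phox (Ncf1), p40phox (Ncf4) and a Rac GTPase, of which Rac2 is listed here. In dendritic cells the enzyme is known from phagosomes, where the superoxide it makes consumes protons and slows acidification, and its activity there has been studied in connection with antigen cross-presentation.

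Transcripts of single splenic CD11c+ MHCII+ cells were counted by droplet sequencing together with antibody tags (CITE-seq), of which only the transcripts are used here. Both groups were 8-week-old female C57BL/6 mice, one wildtype (WT) and the other deficient in the transcription factor Batf3 (Batf3-/-), with no treatment. The spleens of 6 mice were pooled for each genotype and gave 1 library. The experiment was done once, so the genotypes are compared without a test. WT mice came from a commercial supplier while Batf3-/- mice were bred in house from purchased stock, so genotype and colony cannot be told apart. The libraries held 12224 WT and 12119 Batf3-/- cells with a median of 8374.5 and 8516 transcript molecules (UMIs) per cell, and 56 barcode sequences occurred in both. Batf3 itself was at 206 CPM in the WT library and at 2.49 CPM in the Batf3-/- library, where 285 of its UMIs were still counted. CPM here is the summed UMIs of a gene per 1000000 UMIs of the same cells. The intervals given are exact 95% intervals that cover counting error only and not the spread between mice.

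Levels were taken in the 20 clusters of the deposited tables, under their deposited numbers. In the cell types given by the authors, C6 is the dividing cluster of the conventional dendritic cells type 1 (cDC1) and C4 the immature one. C12 holds mature cDC1, and C17 and C18 are minor cDC1 clusters. C5, C7 and C10 are dividing type 2 cells (cDC2), C0 and C8 are of the same cDC2a branch, C2 and C11 are cDC2b, C1 is an Il4i1+ cDC2 and C3 a Sox4+ dendritic cell. C13 holds lymphoid cells, C14 plasmacytoid dendritic cells and C15 cells named monocytes. The clusters were built from the same transcripts, so differences between clusters are described and not tested.

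C6 held 797 WT and 727 Batf3-/- cells, with a median of 19599 and 18019 UMIs. The label was checked against 8 cDC1 genes (Xcr1, Clec9a, Cadm1, Naaa, Tlr3, Wdfy4, Itgae and Irf8), whose summed level was 4156 CPM in WT C6 and 1407 CPM in Batf3-/- C6, against 283 CPM in Batf3-/- C5. All 8 were lower in Batf3-/- C6 than in WT C6. Most of the sum in Batf3-/- C5 was Wdfy4, at 215 CPM there and 194 CPM in Batf3-/- C6. Xcr1, a chemokine receptor that defines cDC1, was at 397 CPM in WT and 45.7 CPM in Batf3-/- C6, and Itgae was at 11.5 and 0.223 CPM. The Batf3-/- cells of C6 thus carried less of the cDC1 programme than their cluster name says, and the cells are called C6 below. The cluster was built from the same transcripts, so a change within cells and a change in which cells enter it cannot be told apart.

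The 5 genes lie on 4 chromosomes of GRCm38. Cybb is at chrX:9435252-9487771, Cyba at chr8:122424776-122432930 and Ncf1 at chr5:134220053-134229625, all on the minus strand. Ncf4 at chr15:78244801-78262580, plus strand, and Rac2 at chr15:78559167-78572783, minus strand, are separated by 297 kb.

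The promoters of both core subunits are shown because the 2 proteins form one heterodimer and their transcripts differed in C6. RefSeq sequences (GRCm38.p6) run from 250 bases before to 30 bases after the start RefSeq gives, on the gene's strand, and matched Cybb, Cyba and Ncf1. Ncf4 and Rac2 were not matched. The RefSeq start of Cybb lies 18.4 kb inside the gene span given above, which is from GENCODE and begins further upstream, while the starts of Cyba and Ncf1 differ by 10 and 0 bases between these annotations. Capitals mark matches to GGAANNGAA (a composite site of ETS and IRF factors), GAGGAA (a PU.1 core) or TGANTCA, searched on both strands. TGANTCA is a loose form of the site of AP-1 factors, the family of Batf3, that allows any middle base.
Cybb (chrX:9469295-9469574): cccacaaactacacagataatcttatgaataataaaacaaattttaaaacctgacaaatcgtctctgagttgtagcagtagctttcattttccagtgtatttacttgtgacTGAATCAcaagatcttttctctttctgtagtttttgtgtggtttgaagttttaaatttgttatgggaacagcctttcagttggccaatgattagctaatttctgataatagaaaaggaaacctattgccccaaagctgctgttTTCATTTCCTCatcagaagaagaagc
Cyba (chr8:122432911-122433190): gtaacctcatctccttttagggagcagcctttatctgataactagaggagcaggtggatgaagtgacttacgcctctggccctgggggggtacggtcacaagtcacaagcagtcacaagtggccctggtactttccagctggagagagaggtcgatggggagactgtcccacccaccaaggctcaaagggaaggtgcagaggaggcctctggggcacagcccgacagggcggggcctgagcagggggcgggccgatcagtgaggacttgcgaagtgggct
The Cybb promoter held all 3 motifs. They were chosen after the sequences were seen, so the contrast with the other promoters is a description and carries no weight. The ETS and IRF match and the PU.1 match overlapped in one run of capitals that begins 5 bases after the start, and the AP-1 match stood 139 bases before it. The Cyba and Ncf1 windows held none of the 3 motifs. Among 32851 promoters of the same length 7.76% held the first motif, 26.0% the second and 7.46% the third. A match is a run of letters and was not tested as a binding site.

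In C6 the flavocytochrome gene Cybb stood apart from the rest of the list. WT cells held 351 Cybb UMIs, a level of 22.4 CPM (20.2 to 24.9), and Batf3-/- cells 1464, a level of 109 CPM (103 to 114). The ratio of Batf3-/- to WT was 4.85-fold, a log2 ratio of 2.28 (2.11 to 2.45). This is the value the list was selected on.

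The partner subunit Cyba differed far less. It was at 885 CPM (870 to 900) in WT and 1081 CPM (1064 to 1099) in Batf3-/- C6, 1.22-fold higher, with a log2 ratio of 0.29 (0.26 to 0.32). The interval does not include 0, but of the 2585 genes that averaged 50 CPM or more over both libraries in C6, 315 had a ratio as high or higher. The 2 chains of the heterodimer thus differed between the libraries by very different folds at the transcript level.

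Among the cytosolic subunits, the GTPase Rac2 was at 209 CPM (202 to 216) in WT and 251 CPM (243 to 260) in Batf3-/- C6, a log2 ratio of 0.27 (0.20 to 0.34). The organiser Ncf1 was at 77.3 CPM (73.0 to 81.8) and 82.6 CPM (77.8 to 87.6), a log2 ratio of 0.10 (-0.02 to 0.21). Ncf4, whose product binds phosphoinositides of the phagosome membrane, was at 200.4 CPM (193 to 208) and 196 CPM (189 to 204), a log2 ratio of -0.03 (-0.11 to 0.04). For Ncf1 and Ncf4 no difference was detectable beyond counting error, and the upper ends of their intervals are folds of 1.16 and 1.03.

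Of the 5 genes 1 was at least 1.5-fold higher in Batf3-/- C6, the one that chose the list, where 4.53% of the 2585 genes were higher by that fold. None of the 5 was at least 1.5-fold lower, where 4.26% of all genes were. The median log2 ratio was 0.18 over the 4 genes other than Cybb and 0.01 over all 2585. None of the 4 other genes of the list came near the fold of Cybb: their folds ran from 0.978 to 1.22. The intervals of Cyba and Rac2 lay above 0 and those of Ncf1 and Ncf4 spanned it. How many of the 2585 genes had an interval above 0 in C6 was not counted. By ratio, 315 of them were as high as Cyba or higher, and 346 as high as Rac2 or higher.

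**Figure D1:**
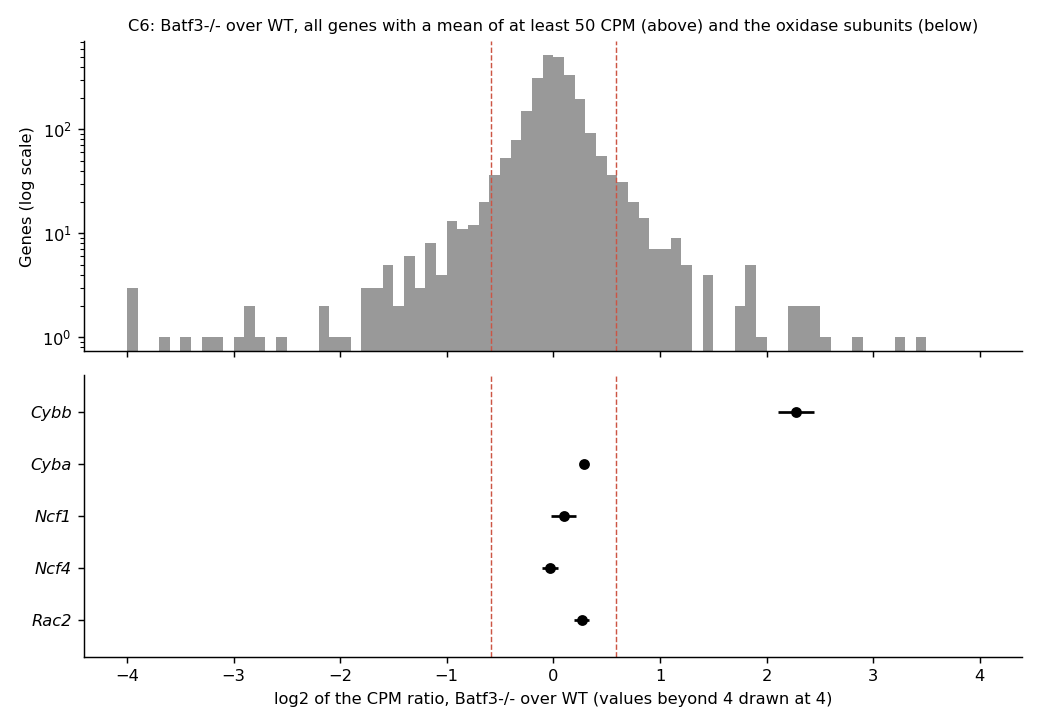
Log2 ratio of CPM in C6, Batf3-/- over WT. Above, the 2585 genes that average 50 CPM or more (number of genes on a log axis); below, the 5 subunits with 95% counting intervals; dashed lines mark 1.5-fold. Cybb at 2.28 lies in the right tail, and Cyba, Ncf1, Ncf4 and Rac2 lie between the dashed lines.

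The counts per cell show how these levels were made up. In WT C6, 657 of 797 cells (82.4%) had no Cybb UMI and 31 cells had 4 or more, up to 16. In Batf3-/- C6, 235 of 727 cells (32.3%) had none and 148 had 4 or more, up to 18. The 40 WT cells with the most Cybb UMIs, which are the top 5%, held 62.1% of the gene's UMIs, while the 37 top Batf3-/- cells held 21.4%. The WT UMIs thus lay in few cells, and those of Batf3-/- were spread over most of the cluster. A mean of 0.44 Cybb UMIs per WT cell leaves many cells at 0 by itself, and no share expected at that mean was computed. Of the WT UMIs 136 lay in 61 cells that the doublet caller Scrublet marked, and of the Batf3-/- UMIs 18 lay in 8 such cells.

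The other 4 genes differed less between the libraries than Cybb did. Ncf1 had no UMI in 26.1% of WT and 23.5% of Batf3-/- cells, Rac2 in 6.90% and 6.88%, Ncf4 in 4.64% and 7.43%, and Cyba in 0.251% and 0.138%. Ncf4 had 4 or more UMIs in 52.9% of WT and 45.0% of Batf3-/- cells. For Rac2 these shares were 52.6% and 55.8%, for Ncf1 9.03% and 8.80% and for Cyba 98.0% and 98.8%. The counts per cell are not scaled to depth, and Batf3-/- C6 cells were shallower (median of 18019 against 19599 UMIs). Scaled to depth, Ncf4 had a log2 ratio of -0.03 (-0.11 to 0.04). The part of depth in these shares was not tested.

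**Figure D2:**
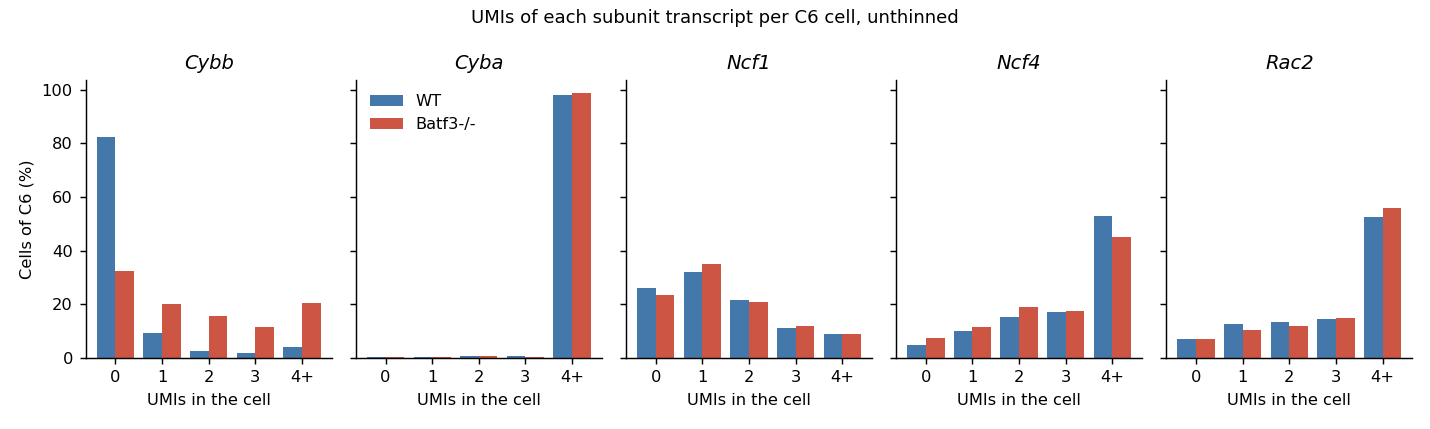
Percentage of C6 cells with 0, 1, 2, 3, or 4 and more UMIs of each subunit, for WT (blue, 797 cells) and Batf3-/- (red, 727 cells), without thinning. The bars at 0 differ between libraries for Cybb (82.4% and 32.3%), and are close for the other 4 genes.

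Depth differs between clusters, so shares were also taken after thinning each cell to 1000 UMIs. In the whole series 28 WT and 42 Batf3-/- cells were too shallow for this, none of them in C6. One thinning is noisy for a sparse gene, so the share expected over all thinnings is given, with the Clopper-Pearson interval of the rounded number of cells. A Cybb UMI was expected in 2.01% of WT C6 cells (1.15 to 3.24) and in 10.8% of Batf3-/- C6 cells (8.57 to 13.2). Without the cells that the doublet caller Scrublet marked, the shares were 1.42% (0.653 to 2.48) and 10.8% (8.67 to 13.4). Lymphoid cells, which should lack the gene, gave the background: of the C13 cells that SingleR labelled NK, NKT, ILC or T, 0.653% of 188 in WT (0.0135 to 2.93) and 1.85% of 103 in Batf3-/- (0.236 to 6.84) would hold one. Their median depths were 4182.5 and 4711 UMIs, far below those of C6. Whether this background holds at the depth of C6 was not tested. The interval of WT C6 overlapped that of its background, and the interval of Batf3-/- C6 lay above both backgrounds. By level, those lymphoid cells were at 10.9 CPM (5.22 to 20.02) and 18.3 CPM (9.12 to 32.7), against 22.4 CPM (20.2 to 24.9) in WT C6 and 109 CPM in Batf3-/- C6. By this measure WT C6 was above its background too, with intervals that do not overlap but nearly meet. In C5, a dividing cDC2 cluster, the expected shares were 20.03% in WT and 22.4% in Batf3-/-, so that Batf3-/- C6 lay between WT C6 and C5.

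The Batf3-/- level of Cybb in C6 did not reach that of the dividing cDC2. Batf3-/- C5 was at 284 CPM (274 to 294), 2.61-fold above Batf3-/- C6, where in WT the fold between C5 and C6 was 10.8. Cyba, Rac2 and Ncf1 had folds of C5 over C6 of 1.43, 1.84 and 1.04 in WT and 1.21, 1.34 and 0.986 in Batf3-/-. Ncf4 was lower in C5 than in C6 in both libraries, at 0.834-fold and 0.761-fold. Of the 5 genes, Cybb had the widest WT gap between C5 and C6.

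The deposited phase calls differed between the libraries in C6, where they put 98.4% of WT but 74.0% of Batf3-/- cells in S or G2M. Of 6 cycling genes 5 were lower in Batf3-/-, with sums of 914 CPM in WT and 869 CPM in Batf3-/- and Mki67 at 245 and 242 CPM. A summed level does not give the share of cycling cells, so it was not tested whether that share differed. Within S phase Cybb was at 20.2 CPM in 474 WT cells and 106 CPM in 354 Batf3-/- cells, a log2 ratio of 2.38 (2.15 to 2.62). Within G2M it was at 22.5 CPM in 310 cells and 80.3 CPM in 184 cells, a log2 ratio of 1.84 (1.54 to 2.14). These are values of the same cells that selected the list and are given as a description. In G1 WT had 13 cells, with 25 Cybb UMIs and 124 CPM (80.5 to 184), and Batf3-/- 189 cells with 159 CPM (144 to 175), a log2 ratio of 0.36 (-0.23 to 1.00) whose interval includes 0. Weighting the 3 phases alike in both libraries brought the Cybb ratio to 3.00-fold, a value that leans on those 13 cells.

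Rac2 was higher in G2M than in S in both libraries, at 256 against 176 CPM in WT and 301 against 216 CPM in Batf3-/-, and its log2 ratio between libraries was 0.29 in S, 0.23 in G2M and -0.12 (-0.50 to 0.29) in G1. Ncf1 differed between libraries by a log2 ratio of 0.01 (-0.16 to 0.18) in S and -0.05 (-0.25 to 0.15) in G2M. Ncf4 was lower in Batf3-/- G2M cells, by a log2 ratio of -0.23 (-0.36 to -0.09), and at 0.00 (-0.10 to 0.11) in S. Cyba was higher in both phases, at 0.32 (0.27 to 0.36) and 0.18 (0.12 to 0.24).

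Cells of C6 were then ranked within each library by their summed share of the 8 cDC1 genes and cut into 3 equal bins, which are ranges and not cell types. The bins hold 242 to 266 cells each. Irf8 made up 941 of the 1407 CPM of these genes in Batf3-/- C6 and 1895 of the 4156 CPM in WT C6. The ranking thus leans on Irf8, and it was not repeated without that gene. Cybb was highest where the summed cDC1 genes were lowest. In WT it was at 48.0 CPM (42.2 to 54.3) in the low bin, 11.3 CPM (8.61 to 14.5) in the middle and 8.18 CPM (5.90 to 11.1) in the high bin. In Batf3-/- it was at 155 CPM (144 to 167), 104 CPM (95.1 to 114) and 69.4 CPM (62.0 to 77.5). Both libraries fell in the same order, and each Batf3-/- bin was above every WT bin. The WT low bin held 249 of the 351 WT Cybb UMIs, and cells marked by Scrublet held 136 of the 351. The bins were not recomputed without the marked cells, so their part in the WT order was not tested. The bins are relative to their own library: the WT low bin ended at 3616 CPM of cDC1 genes and the Batf3-/- high bin ran from 1737 to 4839 CPM.

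Rac2 shared this order, at 242, 208 and 176 CPM from low to high in WT and 309.9, 244 and 204 CPM in Batf3-/-. Ncf4 ran the other way in Batf3-/-, at 174, 194 and 219 CPM, and at 204, 211 and 186 CPM in WT. Cyba fell from 966 to 811 CPM in WT and from 1103 to 1063 CPM in Batf3-/-, and Ncf1 was at 79.6, 76.7 and 75.6 CPM in WT and 89.8, 85.3 and 73.0 CPM in Batf3-/-. The share of G1 cells in the Batf3-/- bins was 32.5%, 25.6% and 19.8%, and its part in these orders was not tested. Across the 727 Batf3-/- cells Pearson's r of log-scaled values was -0.32 between Cybb and the cDC1 genes, over cells that share 1 library.

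**Figure D3:**
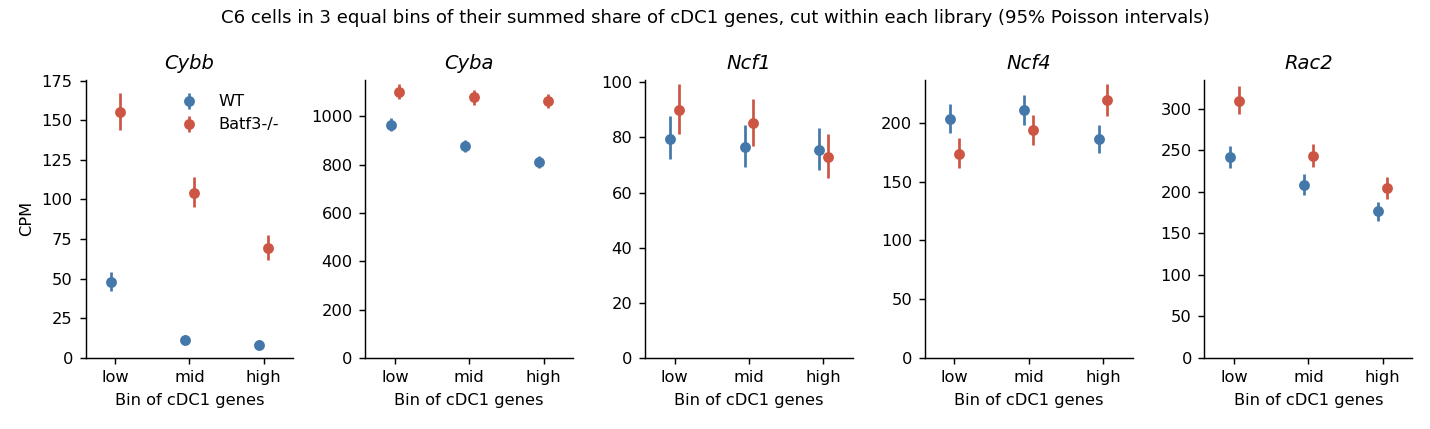
CPM of each subunit in C6 cells cut into 3 equal bins of their summed share of cDC1 genes, for WT (blue) and Batf3-/- (red), with 95% Poisson intervals. Cybb falls from 155 to 69.4 CPM in Batf3-/- and from 48.0 to 8.18 CPM in WT, and Ncf4 runs from 174 to 219 CPM in Batf3-/-.

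Marker lists of other cells were read in C6 as well, with a gene counted as higher at any fold. The median log2 ratio over all 2585 genes was 0.01, so about as many genes were higher as lower. The cDC2 list (Sirpa, Itgam, Cd4, Esam, Cd209a, Clec10a, Clec12a and Mgl2) was higher for 5 of 8 genes, with sums of 171 and 269 CPM in WT and Batf3-/-. Cd209a went from 14.9 to 139 CPM, Itgam from 2.69 to 24.6 CPM, Sirpa from 10.7 to 24.2 CPM and Cd4 from 3.64 to 8.69 CPM. Clec12a went the other way, from 134 to 67.2 CPM. Without Cd209a the other 7 genes summed to 156 CPM in WT and 129 CPM in Batf3-/-. In that sum the fall of Clec12a outweighed the rises of Itgam, Sirpa and Cd4. The monocyte list was higher for 7 of 9, with sums of 451 and 867 CPM, mostly from Ms4a6c at 121 and 438 CPM, Ccr2 at 80.3 and 156 CPM and Lyz2 at 231 and 252 CPM, while Ly6c2 was at 10.4 and 5.79 CPM and Fcgr1 and F13a1 were at 1.26 CPM or less in both libraries. In WT C15, the cluster named monocytes, this list summed to 14504 CPM and the neutrophil list to 12148 CPM. The macrophage list, with 4 of 8 genes higher, summed to 22.6 and 27.6 CPM. The plasmacytoid list, with 3 of 7 higher, summed to 209 and 225 CPM. The neutrophil list, with 5 of 8 higher, summed to 1.02 and 2.08 CPM, with Ly6g and Elane at 0 in both. The list of NK, ILC and T cell genes summed to 36.0 and 119 CPM, almost all of it Klrd1 at 31.8 and 117 CPM, with Cd3e under 1 CPM in both. SingleR labelled 99.7% of WT and 99.2% of Batf3-/- C6 cells as dendritic cells, and with the other cells left out the Cybb ratio was 4.86-fold. In Batf3-/- C5, a dividing cDC2 cluster, the monocyte list summed to 722 CPM, with Ms4a6c at 538 CPM, Lyz2 at 103 CPM and Ccr2 at 23.0 CPM. Ms4a6c was thus higher there than in Batf3-/- C6, and Lyz2 and Ccr2 were lower. The summed monocyte genes, Cd209a, Itgam, Sirpa and Cd4 were higher in Batf3-/- C6 together with Cybb. The part of any of them in the Cybb difference was not tested.

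Scrublet sets its own cut in each library (a score of 0.329 in WT and 0.405 in Batf3-/-). It marked 541 WT cells (4.43%) and 244 Batf3-/- cells (2.01%), of which 61 and 8 were in C6. The 61 WT cells held 136 of the 351 Cybb UMIs, 38.7%, and 9.09% to 12.2% of the UMIs of the other 4 genes. Without the marked cells WT C6 was at 15.1 CPM and Batf3-/- C6 at 109 CPM of Cybb, 7.22-fold. With the WT cut in both libraries it marked 61 WT and 15 Batf3-/- cells of C6, and the ratio without them was 7.21-fold. With the Batf3-/- cut in both it marked 49 and 8, and the ratio was 5.96-fold. C6 held 2 WT and 4 Batf3-/- cells of the barcodes that both libraries share, and without these the Cybb ratio was 4.83-fold.

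The cDC1 cluster C4 was nearly absent from the Batf3-/- library, with 31 cells against 2202. There Cybb was at 26.8 CPM (25.1 to 28.6) in WT and 110.5 CPM (82.5 to 145) in Batf3-/-, a log2 ratio of 2.04 (1.61 to 2.45) from 52 UMIs. Cyba had a log2 ratio of 0.40 (0.27 to 0.52) and Ncf4 one of 0.16 (-0.14 to 0.44). Ncf1 was at 90.7 CPM in WT and 57.4 CPM in Batf3-/-, a log2 ratio of -0.66 (-1.26 to -0.12), and Rac2 at 176 and 110.5 CPM, a log2 ratio of -0.67 (-1.10 to -0.28). Of the 5 genes 1 was at least 1.5-fold higher, where 8.77% of 2417 genes were, and 2 were at least 1.5-fold lower, where 5.50% were. Cybb was thus higher by over 4-fold in C4 as in C6, in C4 with an interval of 3.05 to 5.45 that rests on 31 Batf3-/- cells, and Rac2 had opposite signs in C4 and C6. The 31 cells summed to 391 CPM of macrophage genes against 91.6 CPM in WT C4. They held 312 against 190 CPM of cDC2 genes and 76.5 against 32.8 CPM of B cell genes. Of cDC1 genes they held less, 2520 against 4815 CPM, and of plasmacytoid genes 185 against 208 CPM. The part of these in the C4 values was not tested.

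In C12, the mature cDC1 with 394 WT and 31 Batf3-/- cells, Cybb was at 46.8 CPM (39.4 to 55.3) and 90.4 CPM (58.5 to 133), a log2 ratio of 0.95 (0.27 to 1.57), and past 1.5-fold where 9.03% of 2270 genes were. Cyba, Ncf1, Ncf4 and Rac2 had log2 ratios of 0.05, 0.30, -0.08 and 0.38 there, with intervals that include 0. In C17 and C18 WT cells held 3 Cybb UMIs each, at 12.8 CPM (2.65 to 37.5) and 6.04 CPM (1.25 to 17.7). The Batf3-/- library had 1 and 2 cells there, and no ratio is given.

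Outside C4, C6 and C12 the Cybb ratio was past 1.5-fold in 1 of the 14 clusters that have a ratio. Over all genes and these clusters 1.61% of 38147 values were higher by that fold and 1.55% lower, and intervals lay above 0 for 13.1% and below 0 for 12.3%. In the 14 other clusters with at least 30 cells in each library, the log2 ratio of Cybb ran from -0.05 to 0.80 with a median of 0.14. It was above 0 in 12 clusters, as were 11.1% of 2826 genes in at least 12, and its interval lay above 0 in 6 of them and below 0 in none. C5 was at 0.22 (0.14 to 0.31), C3 at 0.20 (0.15 to 0.25), C0 at 0.16 (0.12 to 0.21) and C2 at 0.01 (-0.04 to 0.06). The highest, 0.80 (0.49 to 1.12), was in C13, where 45 WT and 34 Batf3-/- cells labelled DC held 115 of 151 and 136 of 196 Cybb UMIs. Cybb thus leaned higher in the Batf3-/- library in 12 of these 14 clusters, by far less than in C6 and C4.

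Ncf4 leaned the other way, below 0 in 12 of 14, as were 8.56% of all genes in at least 12, with a median of -0.21 and an interval below 0 in 8. It was past 1.5-fold in C9, with a log2 ratio of -0.60 (-1.09 to -0.11), where 3.76% of all genes were lower by that fold, and in C14, with one of -0.60 (-1.04 to -0.18), where 1.78% were. Rac2 was below 0 in 11 of 14, as were 15.5% of all genes in at least 11, with a median of -0.13 and an interval below 0 in 7. Cyba and Ncf1 had medians of 0.02 and 0.02. The Rac2 ratio of 0.27 in C6 thus stood against negative values in most of these 14 clusters, though in C12 it was 0.38 (-0.33 to 1.03), and the Ncf4 ratio of -0.03 in C6 was nearer 0 than the median. With 1 library per genotype a lean shared by clusters may belong to the library, and genotype and library cannot be told apart.

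**Figure D4:**
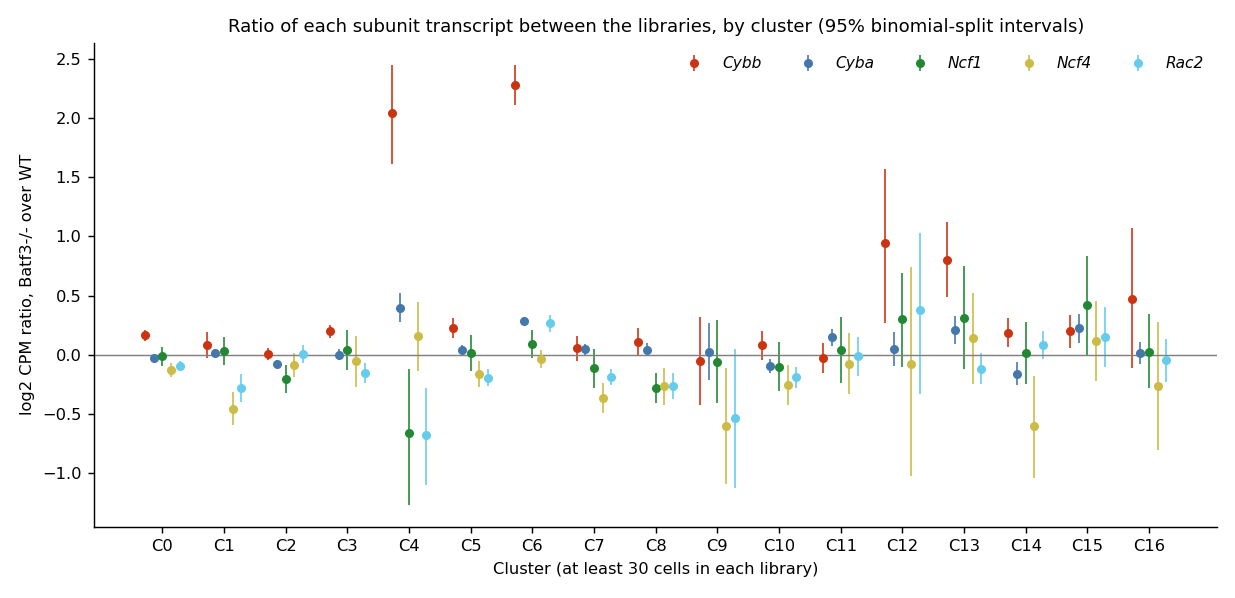
Log2 ratio of CPM, Batf3-/- over WT, for each subunit in the 17 clusters with at least 30 cells in each library, with 95% counting intervals. Cybb reaches 2.04 in C4 and 2.28 in C6, and all other values lie below 1.

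Across cell types the subunits had different profiles in WT. Cybb was highest in C15 at 1178.5 CPM (1116 to 1243), then in plasmacytoid cells (C14) at 807 CPM (764 to 853), Sox4+ cells (C3) at 614 CPM (594 to 634), C2 at 537 CPM (521 to 553) and C11 at 476 CPM (444 to 509). C15 is named monocytes, but it also held neutrophil genes, with S100a9 at 5451 CPM, S100a8 at 3742 CPM and Camp at 1732 CPM in WT, while Ly6g was at 5.23 CPM. C10, C0, C8, C5, C7, C9 and C1 followed from 351 down to 179 CPM. The neighbours C0 and C8, C7 and C9, and C9 and C1 did not differ beyond counting error. C13, C16, C12, C4 and C6 ran from 97.5 to 22.4 CPM, with C16 and C12 not apart. C17 and C18 were lowest, and C6, C17 and C18 held no neighbours that were apart. The 5 cDC1 clusters thus held the lowest Cybb among clusters of at least 30 WT cells, with C16, a cluster of mixed identity, not apart from C12. The Batf3-/- order had the same top, with C15 at 1353 CPM, C14 at 920 CPM and C3 at 705 CPM.

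Within C2, cells that SingleR labelled monocytes held more Cybb than those it labelled dendritic cells, at 640 CPM (613 to 668) against 472 CPM (453 to 491) in WT and 697 CPM (673 to 722) against 473 CPM (461 to 487) in Batf3-/-. Ncf4 ran the other way, at 129 against 153 CPM and 93.2 against 153 CPM.

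Cyba was found in every cluster. It was highest in C16 at 2302 CPM (2194 to 2414) and C1 at 1875 CPM (1837 to 1913) in WT, and C15, C10, C12, C2, C11 and C14 lay between 1563 and 1467 CPM with no neighbours apart. C6, C4, C18, C13 and C3, between 885 and 825 CPM, were not apart from their neighbours either, and C9 and C17, which the study describes as rich in mitochondrial transcripts, were lowest among the clusters of at least 30 WT cells at 408 and 184 CPM. Cyba thus showed no gap between cDC1 and the other clusters as wide as that of Cybb.

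Ncf1 was highest in WT in mature cDC2a (C8), at 266 CPM (251 to 282). In Batf3-/- C8 was at 219 CPM (205 to 234) and not apart from C12 at 221 CPM (169 to 283). In WT C16, C9, C14 and C12 followed at 208 to 179 CPM, and of the dividing clusters C10 was at 134 CPM while C7, C5 and C6 lay at 84.7 to 77.3 CPM with no neighbours apart. Ncf4 was highest in C0 at 243 CPM in WT, and C0, C15, C10 and C6, from there down to 200.4 CPM, held no neighbours that were apart. C12 and C3, at 49.5 and 41.1 CPM and not apart, were lowest among the clusters of at least 30 WT cells. C3, the cluster with the third highest Cybb, was thus among the lowest in Ncf4. Rac2 was highest in plasmacytoid cells (C14) at 897 CPM (850 to 945), then in lymphoid cells (C13) at 753 CPM (710 to 797) and C10 at 730 CPM (697 to 765), which were not apart by counting error, and was low in C9, C12 and C17, at 85.7, 61.0 and 51.4 CPM.

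**Figure D5:**
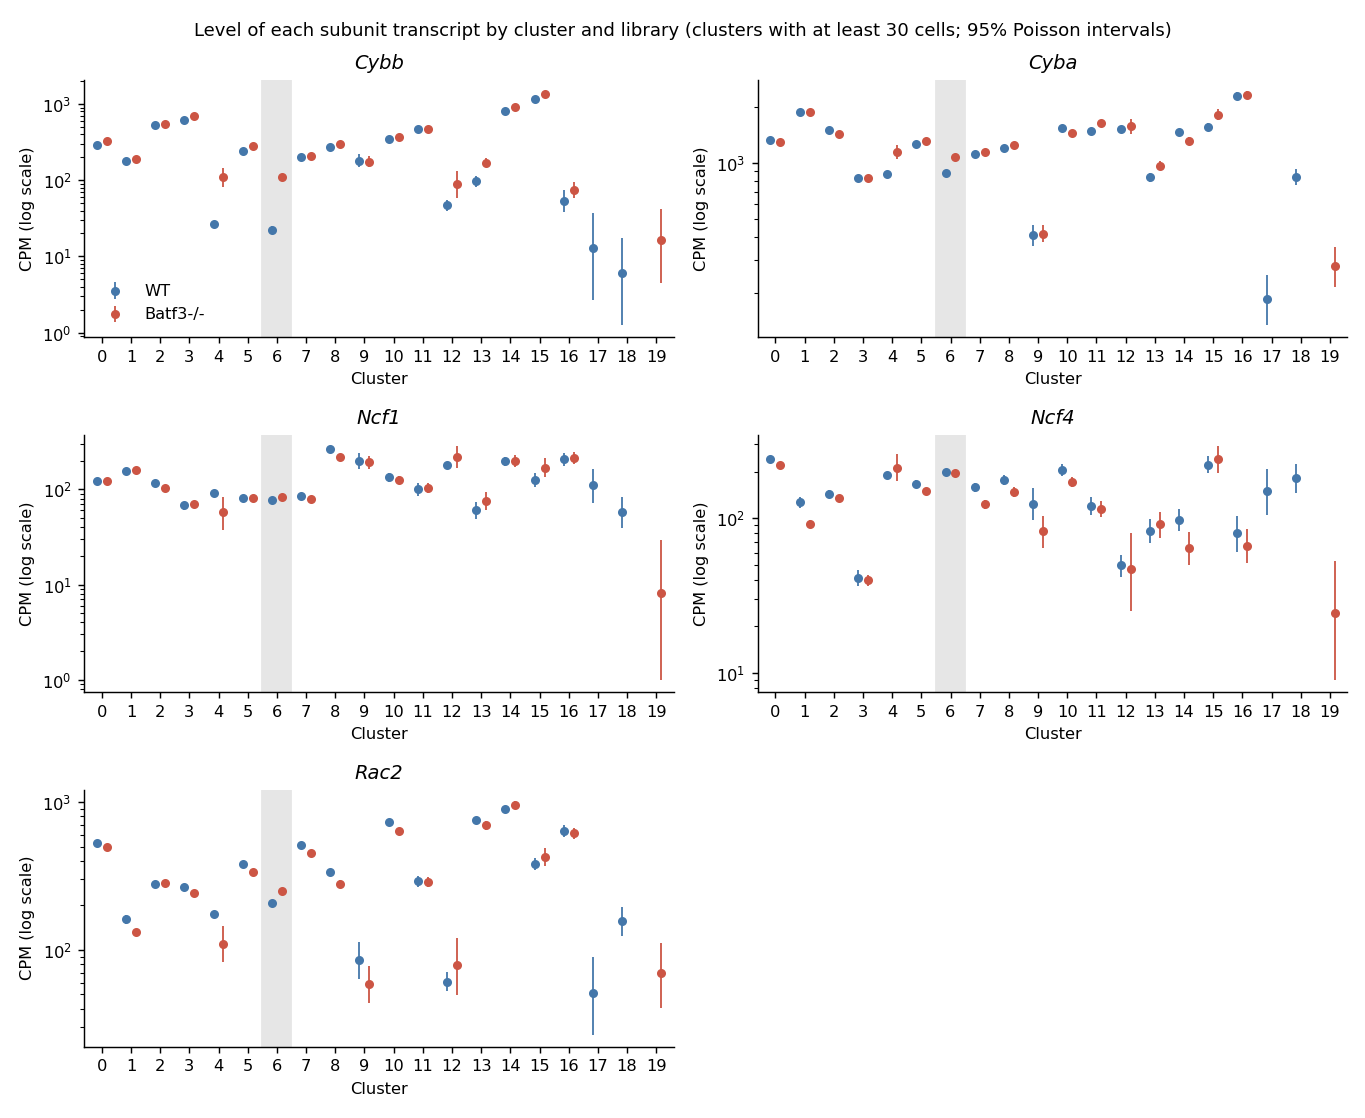
CPM (log axis) of each subunit in each cluster with at least 30 cells, for WT (blue) and Batf3-/- (red), with 95% Poisson intervals; the grey band marks C6. In C4 and C6 the red and blue points of Cybb lie apart (109 against 22.4 CPM in C6), and those in C12 and C13 are past 1.5-fold as well. For the other genes the points past 1.5-fold are Ncf1 and Rac2 in C4 and Ncf4 in C9 and C14, all lower in Batf3-/-.

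Likeness was measured over the 19 WT clusters with at least 50 cells as Pearson's r of log2(CPM + 1), among 2707 genes that averaged 50 CPM or more, and is a description of clusters that share 1 library. The genes most like Cybb were Ptpn1 (r = 0.96), Abi3 (0.92), Ptpn6 (0.92), Fcer1g (0.91) and Slc15a4 (0.91). Ptpn1 and Ptpn6 encode tyrosine phosphatases and Fcer1g the signalling chain of Fc receptors. Of the 4 other genes of the list Rac2 was the most like it (r = 0.53), then Cyba (0.46), Ncf1 (0.28) and Ncf4 (-0.06). Over the 15 Batf3-/- clusters r was 0.20 for Rac2, 0.08 for Cyba, 0.02 for Ncf1 and 0.07 for Ncf4, and these clusters include neither C4 nor C12, C17 and C18.

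The 3 genes most like Cyba were Edf1 (r = 0.93), Vamp8 (0.90) and Bri3 (0.90). For Ncf1 they were Skil (0.80), Nfkbie (0.78) and Tmcc3 (0.77), of which Nfkbie encodes an inhibitor of NF-kappaB. For Ncf4 they were Tgfbi (0.77), Havcr2 (0.73) and Ifngr1 (0.70), and for Rac2 Anp32a (0.92), Cox20 (0.92) and Pycard (0.92). None of the 5 genes was among the 3 most like another of them.

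Other genes of the oxidase and its surroundings, of peroxide removal, and regulators including transcription factors such as Irf8 and Spi1 were read in C6. Of this list of 46 genes, 39 were in the files and 20 averaged 50 CPM or more. Of these, 2 were at least 1.5-fold higher and 3 at least 1.5-fold lower in Batf3-/- C6, beside 4.53% and 4.26% of all genes, and their median log2 ratio was 0.11 against 0.01 over all genes. The 2 higher genes were Prkcd and Arhgdib. Prkcd, which encodes a protein kinase C that can phosphorylate p47phox, was at 73.6 CPM in WT and 180 CPM in Batf3-/- C6, a log2 ratio of 1.29 (1.19 to 1.39). Arhgdib was at 320 and 575 CPM, a log2 ratio of 0.84 (0.79 to 0.89).

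The 3 lower genes were Txn1, Irf8 and Sod1. Txn1, which encodes thioredoxin, was at 1041 CPM in WT and 479 CPM in Batf3-/- C6, a log2 ratio of -1.12 (-1.16 to -1.08). Irf8, a transcription factor of cDC1 that is also on the cDC1 marker list, was at 1895 and 941 CPM, a log2 ratio of -1.01 (-1.04 to -0.98). Sod1, which converts superoxide to peroxide in the cytosol, was at 162 and 106 CPM, a log2 ratio of -0.61 (-0.71 to -0.52). Catalase (Cat) was just within 1.5-fold, at 76.9 and 51.3 CPM, while Sod2, the mitochondrial enzyme, was at 96.0 and 95.6 CPM. Genes of peroxide removal within 1.5-fold went both ways. Gpx1 (1074 and 1198 CPM), Gpx4 (175 and 216 CPM) and Prdx5 (86.7 and 113 CPM) were higher in Batf3-/- C6. Prdx1 (673 and 575 CPM) and Prdx2 (303 and 249 CPM) were lower.

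The other Rac GTPase of these cells, Rac1, was at 282 and 293 CPM, a log2 ratio of 0.05 (-0.01 to 0.11). It was above Rac2, at 209 and 251 CPM, in both libraries. Rap1a, a small GTPase that copurifies with the flavocytochrome, was at 259 and 319 CPM, a log2 ratio of 0.30 (0.24 to 0.36). Cybc1, which encodes a chaperone of the core heterodimer, was at 58.0 and 66.9 CPM, a log2 ratio of 0.21 (0.07 to 0.34). Spi1, which encodes PU.1, a factor known to act on Cybb, was at 340 and 397 CPM, a log2 ratio of 0.22 (0.17 to 0.28). The proton channel Hvcn1 had 35 UMIs in each library and is too low to compare. Rac1, Rap1a, Cybc1 and Spi1 all stayed within 1.5-fold.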

How the data were processed

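Splenic CD11c+ MHCII+ cells of both genotypes were sequenced with 10x chemistry. Per the submitters' processing notes, reads were handled with bcl2fastq 2.2.0, Cell Ranger (GRCm38) and Seurat 3.0.5. The authors aggregated the libraries to even their depth, filtered cells, and deposited the raw counts as UMIs per gene and cell, with cluster, phase and SingleR label. The mitochondrial and the ribosomal part of a cell's UMIs were deposited as a fraction. Recomputed totals matched the deposited ones in 24343 of 24343 cells. The normalized and antibody tables were not used here.

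UMIs were summed per cluster and library. Levels are CPM with exact Poisson intervals, ratios carry the interval from the exact binomial split of the UMIs, and shares of cells carry Clopper-Pearson intervals, all at 95%. UMI counts of a gene in 1 cell are not independent of each other, so the intervals are too narrow for the spread between cells. Ratios were taken where both libraries had at least 30 cells. Thinning was without replacement to 1000 UMIs (alternatives 2000 and 5000), and the share expected over all thinnings was computed from the hypergeometric distribution, a choice made after the data were seen. Doublets were called with Scrublet in scanpy 1.11.5 at an expected rate of 0.10 and were kept, except where stated. Python 3.11.15, numpy 2.4.6, scipy 1.17.1 and pandas 2.3.3 were used. The intervals and the thinning were tested on simulated data. Counts for the intervals were independent Poisson draws, so that test does not cover UMIs held by few cells. Gene positions come from GENCODE M21.

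One gene of the oxidase list is not reported here. The genes and lists were chosen with earlier results of these data known. The named genes were the 5 subunits, list genes past 1.5-fold in C6 with a mean of at least 50 CPM, Rac1, Rap1a, Hvcn1, Spi1 and Irf8, and the genes most like each subunit (5 for Cybb, 3 for the others). Cybc1, Cat, Sod2, Gpx1, Gpx4, Prdx1, Prdx2, Prdx5 and single marker genes were named after their values were seen. The promoter motifs were named after the sequences were seen. Alternatives were other weightings, totals, scaling and depths, cell cycle phases and doublets left out.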

Additional observations from a re-analysis of the deposited data

How the results depend on the processing

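The 5 ratios in C6 were recomputed under 13 alternatives each, of which the shared barcodes, the DC label, the doublet cuts shared by both libraries and the top 5% of cells by UMIs of the gene were chosen after seeing the data. Cybb stayed past 1.5-fold in all 13, from 3.00-fold to 7.22-fold in all but the last of these (10.0-fold), and Cyba, Ncf1, Ncf4 and Rac2 stayed within 1.5-fold in all 13. The Cybb ratio selected the list and every alternative draws on the same 2 libraries, so its range describes the processing and adds no support. The log2 ratio of Cybb left its interval with phases standardised (1.59), without Scrublet calls (2.85 at each library's own cut, 2.85 at the WT cut and 2.58 at the Batf3-/- cut) and without the top cells of the gene (3.33), where the choice of cells by their own Cybb UMIs raises the ratio by construction, since the WT UMIs were held by fewer cells. Cyba did so with phases standardised (0.25) and without mitochondrial and ribosomal UMIs (0.35), Ncf1 in S and G2M cells alone (-0.025) and Ncf4 when thinned to 1000 UMIs (-0.15); the cause was not tested. The share of all genes past 1.5-fold was 8.72% higher and 8.81% lower with 20 UMIs as the filter, and 1.66% and 1.93% at 2-fold. In a single draw of 1000 UMIs a Cybb UMI was seen in 2.38% of WT and 11.8% of Batf3-/- C6 cells, and over 20 draws the shares ran from 1.13% to 2.76% and from 9.22% to 12.9%. The WT share was 1.09% without Scrublet calls (1.42% expected over all thinnings) and 7.73% at 5000 UMIs, and the Batf3-/- share 19.1% at 2000 and 40.4% at 5000 UMIs. Of the 5 genes most like Cybb, 2 remained among the first 5 over Batf3-/- clusters and 2 with Spearman's rho. No paired analysis was possible because each genotype is 1 library. Cell numbers limit every gene in C4, C12 and C17 to C19.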
